A study of Sus scrofa with 22 samples.

Results

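The polycomb genes EED, EZH2, SUZ12 and JARID2 and the histone demethylase genes KDM5B and KDM6B were followed through pig development from embryonic day 0 to 14 (E0 to E14) and in pig stem cell lines. They were taken by name from the authors' tables of group means and standard deviations (SD), 6 of 25749 genes, with no threshold on a measured value. All 6 are measured in each of the 39 groups of cells. In the pig build Sscrofa11.1, EED lies on chromosome 9 (20123077 to 20158747) and EZH2 on the same chromosome (109384976 to 109450943). SUZ12 (42983597 to 43032671) and KDM6B (53087072 to 53108949) lie on chromosome 12, JARID2 on chromosome 7 (11358243 to 11601715) and KDM5B on chromosome 10 (24739115 to 24831537).

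Polycomb repressive complex PRC2 places methyl groups on lysine K27 of histone H3, a mark of silenced genes. EZH2 is its catalytic subunit, EED binds the finished mark and activates the enzyme, SUZ12 holds the core together, and JARID2 is an accessory subunit that helps to bring PRC2 to its targets. KDM6B (also called JMJD3) removes the same mark, and KDM5B removes methyl groups from lysine K4 of H3, a mark of active promoters. In mammalian embryos these marks are rewritten around genome activation and during the separation of the first lineages. The files hold RNA levels alone, so neither the proteins nor the marks were measured.

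Polyadenylated RNA of single cells was measured with a modified Smart-seq2 protocol that adds a cell barcode. The embryonic cells came from 20 libraries (P1 to P20), labelled as pig embryos of E0 to E14. A pair of further libraries, pgEpiSC_high and pgEpiSC_low, held pre-gastrulation epiblast stem cells, lines derived from E10 epiblast. The sources used here give neither the meaning of high and low, nor whether these were distinct lines, nor the breed, sex or number of embryos. The authors' 37 embryonic groups are Oocyte, Zygote, 2C, 4C and 8C (2-cell, 4-cell and 8-cell stages), Morula_E4, preICM_E5 and ICM_E6 (inner cell mass), preTE_E5 and 8 TE groups (trophectoderm, the outer layer that forms placenta), 4 Epiblast groups (the source of the embryo proper), 4 Hypoblast groups (the source of yolk sac endoderm), and groups of ectoderm, mesoderm and endoderm from E11 on. The spellings Mesdoderm and Defi_Endoderm are the authors'.

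The 22 libraries held 1647 cells with 7415760 to 39405309 counts per library and a median of 274531 counts and 9120 detected genes per cell. All 96 cell barcodes recur in several libraries, as is usual for barcodes tied to plate wells, so a shared barcode is not a shared cell. The cell names give the library and not the group, and the grouping used here was recovered from the authors' group means. The marker genes followed the group names for hypoblast, epiblast and TE, and less clearly for endoderm and mesoderm. The mean level of POU5F1, SOX2 and NANOG, genes of pluripotent cells, was 0.96 to 1.73 in the Hypoblast groups and 3.56 to 4.17 in the Epiblast groups, on the scale of the authors' means, log2(CPM/10 + 1), where CPM is the count of a gene scaled to a fixed library total. The mean over 7 measured hypoblast and endoderm markers was 3.50 to 4.63 in the Hypoblast groups and 0.77 to 2.13 in the Epiblast groups, so these markers were not at 0 in epiblast cells, and their part in the results below was not tested. Of 7 trophectoderm markers the mean was 4.05 to 4.71 in the TE groups. It was 1.78 to 2.49 in the Epiblast groups and 1.84 to 2.28 in the Hypoblast groups. Outside the TE groups it reached 3.45, in Mesdoderm_E13. HAND1 of this list was near 0 in TE_E6, TE_E8 and TE_E9. The mesoderm list of 6 genes separated its groups less, with 1.62 to 2.24 in the Mesdoderm groups, against 0.77 to 1.43 in the Ectoderm groups. The hypoblast and endoderm markers stood at 2.37 to 3.65 in the Endoderm and Defi_Endoderm groups, against 2.03 to 2.84 in the Mesdoderm groups and 1.53 to 1.89 in the Ectoderm groups. Defi_Endoderm_E14 had the 2.37, below Mesdoderm_E11 to Mesdoderm_E13, and its mesoderm list mean of 1.68 was above the 1.62 of Mesdoderm_E13.

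The counts of all cells that share a group and a library were added, and such a library sum is the unit of every test. Tests are edgeR quasi-likelihood F-tests over all genes with Benjamini-Hochberg adjustment, called at an adjusted p under 0.05, and each log2 change carries an approximate standard error (SE). Whether libraries stem from different embryos is not stated, so the p-values reflect variation between library sums, which may be technical. A few sums stood apart before any comparison. The 4C cells of P1 and P13 differed by far more than counting error, EED for example standing at 237.7 CPM (95% Poisson interval 226.2 to 249.6) in P1 and 11.2 CPM (7.03 to 16.97) in P13. The TE_E7 sum of P9, with 5 cells and 494250 counts, held 127.5 CPM of KDM6B and 465.4 CPM of JARID2, against 4.90 and 68.6 CPM in the TE_E7 sum of P8. Results that rest on these sums are given with and without them.

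By group mean, EED was highest in inner cell mass, followed by the morula. Its mean was 4.39 ± 0.65 in ICM_E6, 4.30 ± 0.53 in preICM_E5 and 4.15 ± 0.62 in Morula_E4 (SD over 32, 34 and 30 cells, log2 scale of the authors' means). The 4C group came next with 3.73 ± 1.64 (23 cells). Its P1 sum, at 237.7 CPM, was above both ICM_E6 sums (231.2 and 209.6 CPM). The lowest means were 0.46 ± 0.67 in 8C, 1.08 ± 0.41 in 2C and 1.47 ± 1.27 in TE_E13 (80, 10 and 34 cells). Over all 39 groups the median of its means was 2.38, and 39.1% of its variance over cells lay between groups, where the median gene had 31.1% (9893 genes). From E7 on its highest mean was 3.31 ± 0.99, in Hypoblast_E7.

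EZH2, the catalytic subunit, had another course. Its highest means were 4.04 ± 0.67 in 4C, 3.70 ± 0.31 in 2C and 3.64 ± 0.61 in Mesdoderm_E13 (23, 10 and 20 cells). The lowest were 0.89 ± 0.82 in Ectoderm_E12, 1.08 ± 1.00 in Epiblast_E10 and 1.17 ± 1.65 in TE_E9 (26, 97 and 2 cells). High means thus stood in cleavage stages and in mesoderm of E13, with low ones in late epiblast and early ectoderm. Next in order was preTE_E5 with 3.61 ± 1.25 (60 cells), the highest group on summed counts (179.1 CPM). Not all late groups were high, with 2.42 ± 0.54 in TE_E14 (11 cells).

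SUZ12 varied less between groups, with 25.2% of its variance there. Its mean was 4.14 ± 0.47 in TE_E9, a group of 2 cells, 3.87 ± 0.78 in preICM_E5 and 3.64 ± 0.96 in preTE_E5 (34 and 60 cells). It was 0.96 ± 1.18 in Defi_Endoderm_E13 and 1.34 ± 0.81 in 8C (12 and 80 cells). The 4 Epiblast groups, at 1.504 to 1.95, lay below the 4 Hypoblast groups, at 2.36 to 3.25.

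JARID2 had the largest share of variance between groups among these genes, 53.9%. Its mean was 4.97 ± 0.40 in Epiblast_E9, 4.79 ± 0.79 in Morula_E4 and 4.67 ± 0.62 in preICM_E5 (7, 30 and 34 cells). At the low end stood 8C with 0.75 ± 0.74, Hypoblast_E8 with 1.23 ± 1.00 and Mesdoderm_E14 with 1.57 ± 1.25 (80, 129 and 25 cells). Both pgEpiSC libraries lay in its upper range, with 3.72 ± 0.83 in pgEpiSC_high and 4.61 ± 0.95 in pgEpiSC_low.

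KDM5B had 48.3% of its variance between groups. Its mean was 4.31 ± 0.51 in Morula_E4, 4.30 ± 0.57 in preICM_E5 and 4.16 ± 0.84 in Epiblast_E9 (30, 34 and 7 cells), and 0.31 ± 0.49 in 8C and 1.04 ± 0.42 in 2C (80 and 10 cells). The gap between 2C and the next group in the order, Endoderm_E11 at 1.74 ± 1.65, was within the larger SD, while the gap between 8C and 2C was not.

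KDM6B was detected in 41.0% of all cells, where the other genes had a count in 88.6% to 93.0%. Its mean was 2.72 ± 1.06 in 2C, 2.24 ± 0.88 in 8C and 2.10 ± 0.13 in TE_E9 (10, 80 and 2 cells). The lowest means were 0.13 ± 0.47 in Epiblast_E7 and 0.19 ± 0.54 in pgEpiSC_high (35 and 96 cells). A count of KDM6B was present in 14.3% of Epiblast_E7 cells and 13.5% of pgEpiSC_high cells. For each gene, groups were ordered by their mean, which gives 38 pairs of neighbours, and neighbours differed by more than the larger of their SDs over cells in 1 pair for KDM5B (2C and 8C) and in 0 pairs for the other genes.

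**Figure D1:**
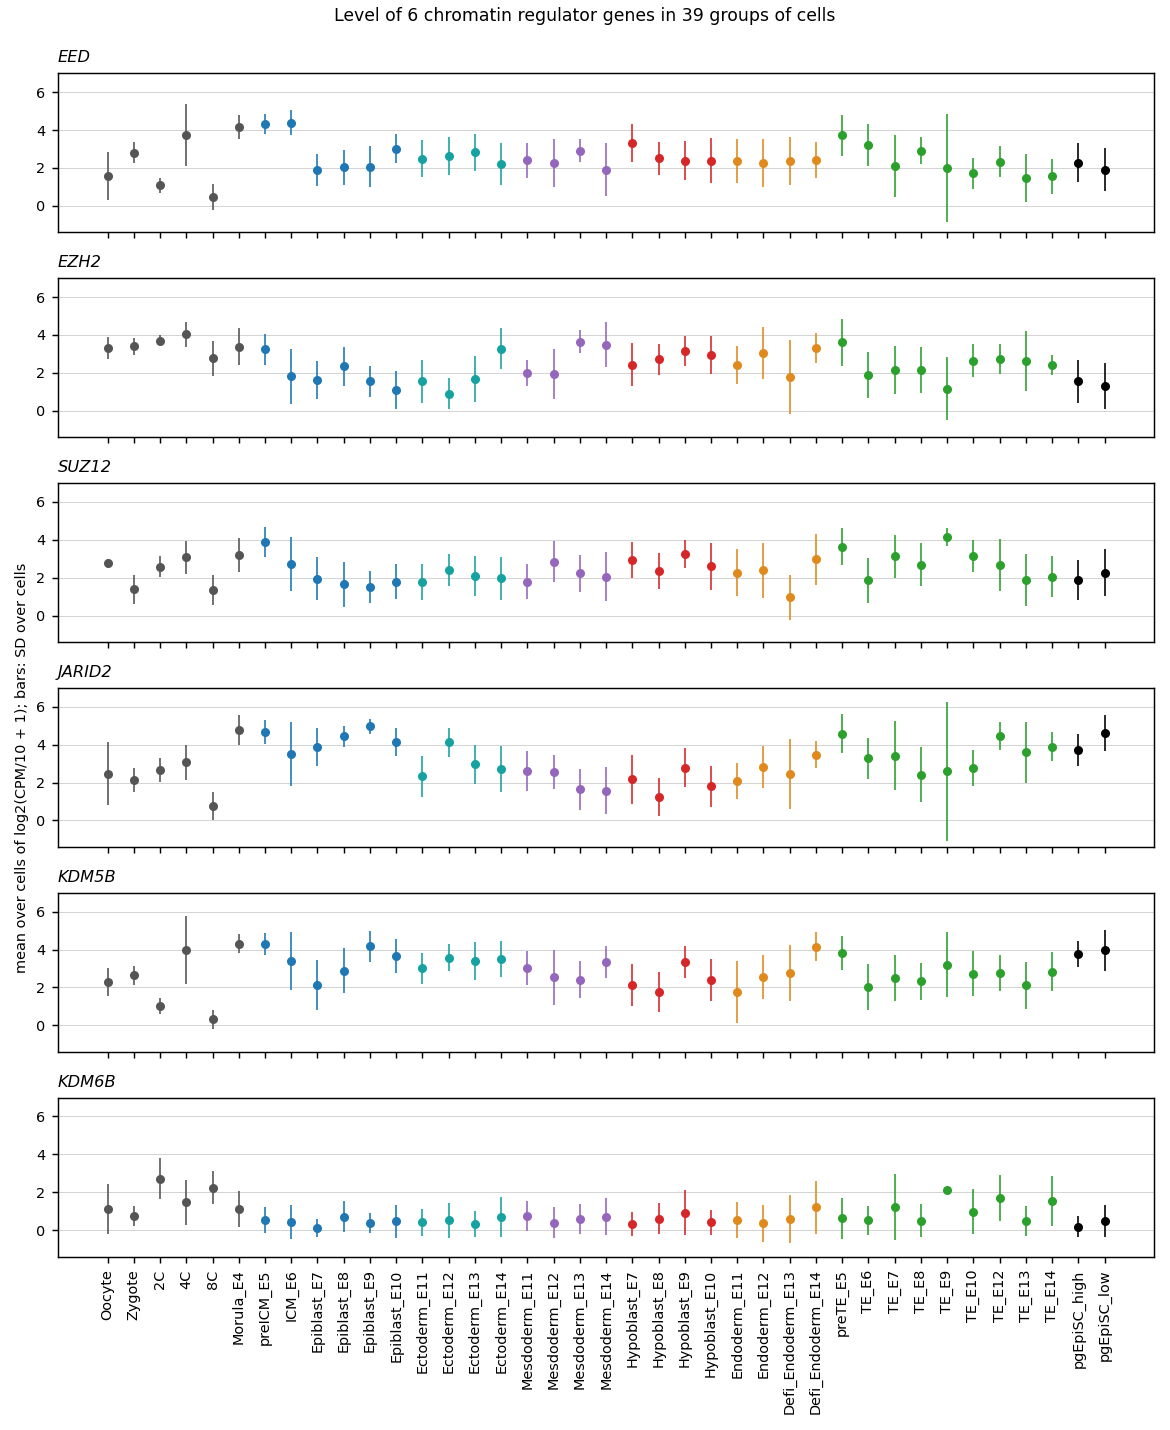
Mean over cells of log2(CPM/10 + 1) (points) and SD over cells (bars) for each gene in the authors' 39 groups, coloured by lineage. EED, JARID2 and KDM5B were lowest in 8C, KDM6B was highest in 2C and EZH2 in 4C.

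The 6 genes took different courses through cleavage. EED stood at 25.7 CPM in the oocyte sum, 56.7 CPM in the zygote sum, 13.8 and 5.67 CPM in the 2C sums, 237.7 and 11.2 CPM in the 4C sums, 4.28 and 6.41 CPM in the 8C sums and 200.4 and 179.3 CPM in the Morula_E4 sums. For KDM5B the values were 26.7 CPM in the oocyte, 52.4 CPM in the zygote, 12.6 and 6.61 CPM in 2C, 312.6 and 12.2 CPM in 4C, 6.25 and 2.90 CPM in 8C and 209.8 and 216.7 CPM in Morula_E4. Both genes were thus low in every 2C and 8C sum, high in both morula sums, and split between the libraries at 4C, where P1 was near the morula level and P13 near the 2C level.

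JARID2 had 47.2 and 111.4 CPM in the 2C sums, 100.2 and 91.2 CPM in the 4C sums, 17.5 and 8.38 CPM in the 8C sums and 277.5 and 252.6 CPM in the Morula_E4 sums. Its 4C sums lay close together, unlike those of EED and KDM5B, and its 8C sums lay below all of the others. SUZ12 had 47.2 and 81.7 CPM in 2C, 107.3 and 37.2 CPM in 4C, 21.6 and 21.4 CPM in 8C and 96.4 and 93.9 CPM in Morula_E4. EZH2 had 116.9 and 137.4 CPM in 2C, 195.2 and 118.2 CPM in 4C, 89.8 and 68.9 CPM in 8C and 117.0 and 122.1 CPM in Morula_E4. KDM6B, lower in both morula sums than in both 8C sums, had 63.8 and 142.6 CPM in 2C, 15.3 and 117.2 CPM in 4C, 57.8 and 46.0 CPM in 8C and 17.7 and 24.4 CPM in Morula_E4.

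**Figure D2:**
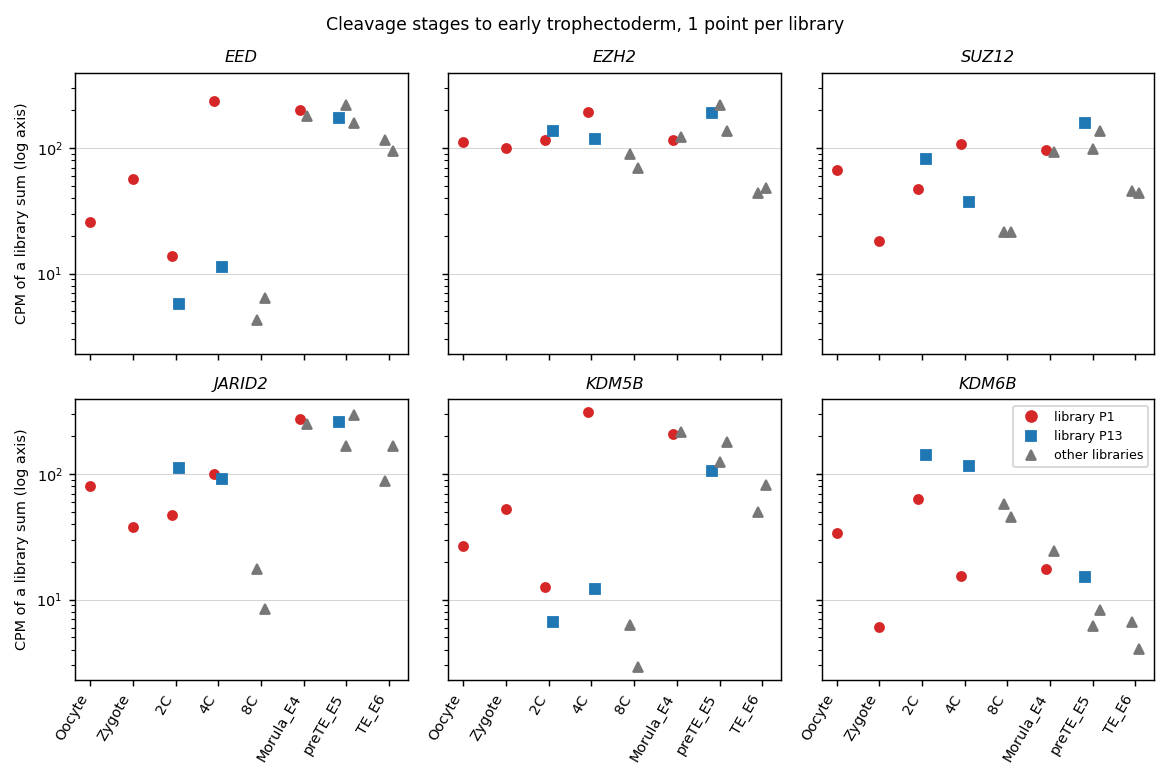
CPM (log axis) of each library sum from oocyte to TE_E6, with library P1 as red circles, P13 as blue squares and the other libraries as grey triangles. At 4C, EED was 237.7 CPM in P1 and 11.2 CPM in P13, and KDM5B 312.6 and 12.2 CPM.

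In the fit across stages, EED rose by 3.91 ± 0.71 (log2, SE) in 4C against 2C (edgeR adjusted p = 0.00023) and KDM5B by 4.33 ± 0.70 (adjusted p = 8.2e-05). These were 2 of the 6 genes, where 4.47% of all genes tested were called. Both calls rested on the 4C cells of P1: without that library the changes were 1.10 and 1.00 (edgeR adjusted p = 1 for both), with the lone remaining sums assumed to vary like the other groups. With the library as a block they were 2.94 (adjusted p = 0.96) and 3.15 (adjusted p = 0.88), so neither was called.

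In 8C against 4C, EED fell by 4.06 ± 0.70 (edgeR adjusted p = 5.7e-05), KDM5B fell by 4.82 ± 0.71 (5.6e-06) and JARID2 fell by 2.40 ± 0.55 (0.0017). The call covered 3 of the 6 genes, where 11.2% of all genes were called. Without P1 the changes of EED and KDM5B were -0.29 and -0.79 (adjusted p = 0.90 and 0.53), so these too rested on that library. JARID2 kept its direction but missed the threshold without P20 (-2.12, adjusted p = 0.082). EZH2, SUZ12 and KDM6B were not called. The 8C sums came from P19 and P20 and the 4C sums from P1 and P13, so stage and library cannot be told apart at this step.

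In Morula_E4 against 8C, 4 of the 6 genes rose: KDM5B by 5.31 ± 0.73 (edgeR adjusted p = 1.3e-07), EED by 4.77 ± 0.73 (1.1e-06), JARID2 by 4.12 ± 0.59 (3.0e-07) and SUZ12 by 1.83 ± 0.48 (0.0031). The background was high, with 29.8% of all genes called at this step. With DESeq2 size factors the median change of all genes moved to -0.47, against 0.00 with TMM scaling, and the 4 genes still rose, by 4.79, 4.28, 3.60 and 1.32. SUZ12 missed the threshold without P19 (1.17, adjusted p = 0.15). EZH2 and KDM6B were not called. The Morula_E4 sums came from P1 and P2, which held no 8C sum, so here too stage and library cannot be told apart.

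The other parts of the polycomb system moved in both directions at the same steps. In 4C against 2C, AEBP2, an accessory subunit, rose by 3.89 ± 0.84, BCOR of variant PRC1 by 4.50 ± 1.13 and WDR5, a subunit of K4 methyltransferases, by 1.79 ± 0.47. In the 4C sums of P1 and P13, AEBP2 had 259.5 and 9.68 CPM, BCOR 224.7 and 4.59 CPM and WDR5 134.4 and 46.4 CPM, so P1 was the higher for each. Without P1 the changes were 0.08, 2.37 and 0.32 (edgeR adjusted p = 1 for each), so none was called. In 8C against 4C, AEBP2 fell by 6.52 ± 0.94, and of PRC1, the complex that ubiquitinates histone H2A, BCOR, RING1, PHC1, BMI1 and RYBP fell (at -5.24 to -1.71) and RNF2 rose by 1.89 ± 0.51. Without P1 each of these 7 genes kept its direction and none was called, with AEBP2 at -2.42 (edgeR adjusted p = 0.095) and BCOR at -0.29 (adjusted p = 0.98). In Morula_E4 against 8C, 2 of 5 measured PRC2 core genes rose (EED and SUZ12) and 2 fell, EZH1, the homologue of EZH2 (-3.06 ± 1.00), and RBBP7, a histone-binding subunit (-1.25 ± 0.35). Of 8 measured accessory genes 3 rose, JARID2, AEBP2 by 7.47 ± 0.98 and PHF1 by 3.56 ± 0.40, and 2 fell, PHF19 (-4.42 ± 1.39) and LCORL (-1.46 ± 0.45). Of 16 measured PRC1 genes 7 rose in Morula_E4 against 8C and 3 fell, with RING1 at 6.33 ± 1.07 and its paralog RNF2 at -2.53 ± 0.53. KDM6A, listed beside KDM6B as a demethylase of K27, rose by 2.16 ± 0.64 at this step (edgeR adjusted p = 0.0082). The median change was 0.30 over the measured PRC2 core genes, -1.25 over the accessory genes and 0.43 over the PRC1 genes, against 0.00 over all genes tested. Without P1, 23 of the 25 related genes called in Morula_E4 against 8C were still called, and PHC3 and MCM3 were not. PHF19 had 12.3 CPM in the Morula_E4 sum of P1 and 0 counts in that of P2, against 125.5 and 103.4 CPM in the 8C sums.

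The blastocyst brought a single call in each of 2 steps. EZH2 had 48.5 and 43.5 CPM in the TE_E6 sums, against 189.8, 219.8 and 136.2 CPM in the preTE_E5 sums, without overlap. It fell by 1.55 ± 0.41 (edgeR adjusted p = 0.015), where 4.84% of all genes were called. The other genes were not called at this step, although SUZ12 had 43.5 and 45.1 CPM in TE_E6, against 158.1, 97.5 and 137.2 CPM in preTE_E5 (-1.14 ± 0.44, adjusted p = 0.13). Of the related genes RYBP of PRC1 (-1.29 ± 0.39) and the demethylase KDM7A (-4.09 ± 1.00) fell as well. EZH2 missed the threshold without P14 (adjusted p = 0.31) and without P15 (adjusted p = 0.12).

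EED had 33.0 and 32.7 CPM in the Epiblast_E7 sums, against 209.6 and 231.2 CPM in the ICM_E6 sums. It fell by 2.74 ± 0.66 (edgeR adjusted p = 0.018), where 1.84% of all genes were called. The Epiblast_E7 sums came from P8 and P9 and the ICM_E6 sums from P14 and P15, so stage and library cannot be told apart. The change was -2.76 to -2.70 without any of the 4 libraries of these groups, and the adjusted p was then 0.083 to 0.19. At the same step PHC1 (3.31 ± 0.62) and PCGF2 (2.88 ± 0.79) of PRC1 rose. In Hypoblast_E7, the other product of the inner cell mass, EED had 111.5 and 125.1 CPM (-0.93 ± 0.62 against ICM_E6, adjusted p = 0.61). TE and ICM cells of E6 came from the same libraries, P14 and P15, fewer than the 3 blocks asked of a lineage comparison, so their values are given and the difference was not tested. There EED had 115.4 and 94.1 CPM in TE, against 231.2 and 209.6 CPM in ICM. SUZ12 and KDM5B were likewise lower in TE in both libraries, with 45.1 and 43.5 CPM of SUZ12 in TE, against 81.2 and 79.9 CPM in ICM, and 50.4 and 81.7 CPM of KDM5B in TE, against 101.4 and 144.5 CPM in ICM. EZH2 had 43.5 and 48.5 CPM in TE, against 51.3 and 28.3 CPM in ICM, so its order differed between the libraries.

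In the other 10 comparisons of successive stages none of the 6 genes was called, where 0.325% of all tests were calls. Of the 60 tests of the 6 genes, 11 had an unadjusted p under 0.05 (edgeR). Over all genes that share was 6.99% to 15.5%, depending on the comparison. The nearest to a call was EZH2 in Ectoderm_E14 against Ectoderm_E13, described below.

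Hypoblast and epiblast cells of the same library and day were compared in 6 blocks, P8 and P9 at E7, P4 and P5 at E8, P17 at E9 and P16 at E10. The core subunits EZH2, SUZ12 and EED were higher in hypoblast, and JARID2 and KDM5B were lower. Among the 6 genes 3 were called higher, where 10.3% of all genes were, and 2 were called lower, where 8.44% were.

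EZH2 ran in the hypoblast sums between 59.9 and 95.4 CPM with a median of 72.0, against 17.9 to 53.3 CPM with a median of 27.9 in the epiblast sums. It was higher in hypoblast in 6 of 6 blocks and the ranges did not overlap. The difference was 1.43 ± 0.29 (log2, SE; edgeR adjusted p = 0.0032), and without any block it was 1.18 to 1.59. The gap was widest in P17 (95.4 CPM in hypoblast, 22.3 CPM in epiblast) and P16 (88.3 and 17.9 CPM) and narrowest in P4 (73.6 and 53.3 CPM).

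SUZ12 ran between 37.3 and 91.4 CPM in hypoblast, median 74.1, against 22.8 to 51.8 CPM in epiblast, median 36.9. It was higher in 6 of 6 blocks with overlapping ranges, by 0.97 ± 0.25 (edgeR adjusted p = 0.015). Without P16 it missed the threshold (0.85, adjusted p = 0.054), as it did without the block (0.84, adjusted p = 0.052).

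EED ran between 51.1 and 125.1 CPM in hypoblast, median 62.5, against 32.7 to 75.8 CPM in epiblast, median 39.4. It was higher in 5 of 6 blocks, by 0.89 ± 0.26 (edgeR adjusted p = 0.027), and missed the threshold without P4, P8 or P9 (adjusted p = 0.070 to 0.089). The exception was P16 at E10, with 61.3 CPM in hypoblast and 75.8 CPM in epiblast. A change of the difference with day was tested on its own, and 1.21% of all genes were called. None of the 6 genes was among them, EED having the smallest p (-0.60 ± 0.17 per day, unadjusted p = 0.0022, adjusted p = 0.10).

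JARID2 ran the opposite way. It had 16.7 to 78.6 CPM in hypoblast, median 43.6, against 133.1 to 287.9 CPM in epiblast, median 201.2. It was lower in hypoblast in 6 of 6 blocks without overlap, by -2.30 ± 0.33 (edgeR adjusted p = 0.00025), and the value was -2.57 to -2.01 without any block. KDM5B had 33.2 to 111.7 CPM in hypoblast, median 44.2, against 48.9 to 186.6 CPM in epiblast, median 92.5, lower in 6 of 6 blocks by -0.78 ± 0.20 (adjusted p = 0.014). It missed the threshold without P5 (-0.64, adjusted p = 0.052) and without the block (-0.86, adjusted p = 0.057). KDM6B had 3.95 to 18.8 CPM in hypoblast, against 0.651 to 12.7 CPM in epiblast, and its difference of 1.35 ± 0.66 was not called (adjusted p = 0.18).

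With at least 10 cells in a sum, which leaves fewer blocks, JARID2 alone was called (-1.79, adjusted p = 0.041), while EZH2 was at 1.65 (adjusted p = 0.056), EED at 1.11 (0.19), SUZ12 at 0.95 (0.099) and KDM5B at -0.57 (0.26). The directions were as before.

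**Figure D3:**
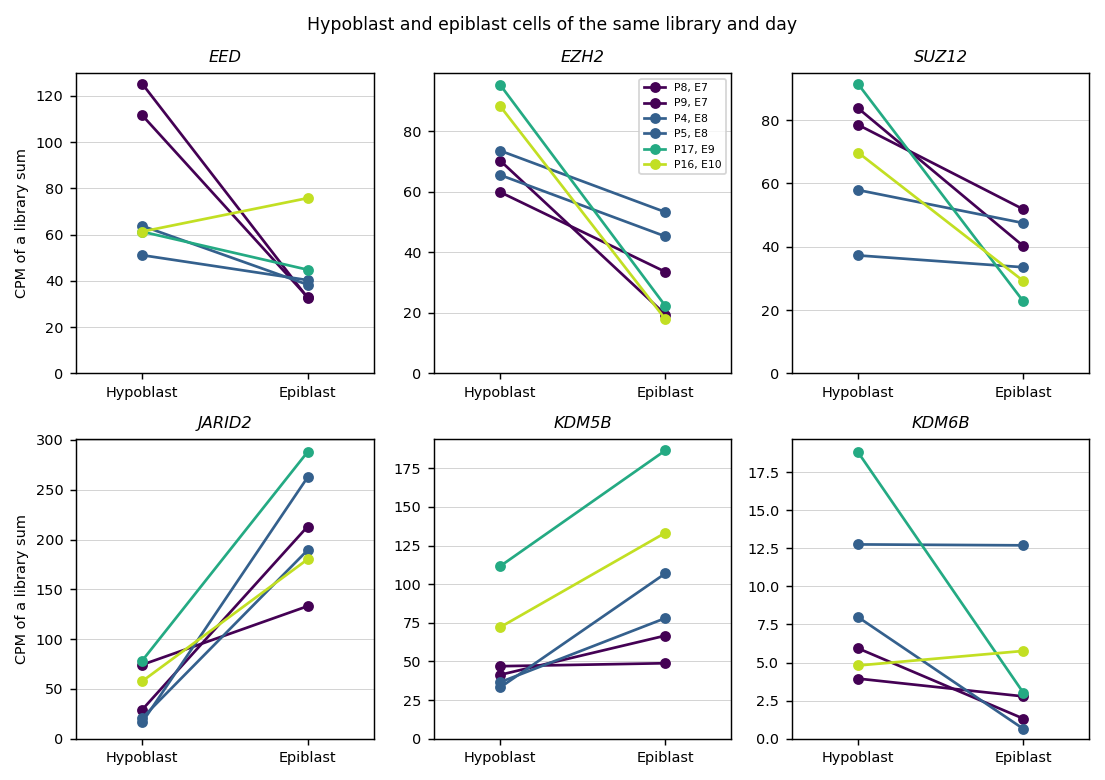
CPM of the hypoblast sum (left) and the epiblast sum (right) of the same library and day, 1 line per block, coloured by day. EZH2 and SUZ12 were higher in hypoblast in 6 of 6 blocks, JARID2 and KDM5B were lower in 6 of 6, and EED was higher in 5 of 6.

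Related regulators were read in the same comparison from lists of known genes. Of 5 measured PRC2 core genes 3 were higher in hypoblast and none lower. These were EED, SUZ12 and EZH2 themselves, described above, and the other measured core genes were not called. The list median of 0.89, against 0.09 over all genes tested, is the value of EED. Of 7 accessory genes none was higher and 2 were lower, JARID2 and MTF2 (-0.75 ± 0.21), a subunit of the other form of PRC2, with a list median of -0.68. Of 16 PRC1 genes 2 were higher, YAF2 (2.38 ± 0.41) and RYBP (0.73 ± 0.21), and 4 were lower, BCOR (-2.68 ± 0.31), PHC1 (-1.89 ± 0.30), RNF2 (-1.56 ± 0.25) and PCGF2 (-0.91 ± 0.29). YAF2 and RYBP are subunits of variant PRC1, and PHC1 belongs to canonical PRC1. The E3 ligase RNF2 is shared by both.

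KDM5B was the 1 gene called among 5 measured K4 demethylases. Of 9 K4 methyltransferase genes 2 were lower, RBBP5 (-1.35 ± 0.31) and KMT2A (-1.28 ± 0.30), and none was higher. Of 10 demethylases of lysines K9 and K36 of H3, PHF2 was higher (2.66 ± 0.79), and JMJD1C (-1.996 ± 0.22) and KDM3B (-1.44 ± 0.33) were lower. Among 8 measured cell division genes MCM3 was higher (0.68 ± 0.20) and TOP2A (-0.44 ± 0.13) and AURKB (-0.77 ± 0.25) were lower, with a list median of -0.16, so genes of dividing cells moved with the difference in both directions.

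Trophectoderm was compared with epiblast in 3 blocks and hypoblast with trophectoderm in 6. In TE against epiblast EED had 92.2, 60.7 and 79.3 CPM in TE of P8, P9 and P4, against 33.0, 32.7 and 38.4 CPM in epiblast, which did not overlap but was not called (1.12 ± 0.58, edgeR adjusted p = 0.24). SUZ12 had 62.45 to 174.0 CPM in TE, against 40.2 to 51.8 CPM in epiblast. EZH2 had 46.5 to 59.6 CPM in TE, against 19.5 to 53.3 CPM in epiblast. Both were higher in TE in 3 of 3 blocks and neither was called. JARID2 and KDM5B were lower in TE in 2 of 3 blocks. KDM6B was the 1 gene of the 6 called (3.40 ± 1.15, adjusted p = 0.041), where 10.6% of all genes were called. It had 4.90, 127.5 and 2.94 CPM in TE of P8, P9 and P4, against 1.32, 2.78 and 0.651 CPM in epiblast, so most of this difference came from the 5 TE cells of P9. Without P8 or without P9 it did not pass the filter on low counts and was not tested. Lower in TE were AEBP2 (-1.88 ± 0.60), PHC1 (-3.75 ± 0.60), BCOR (-2.26 ± 0.73), RNF2 (-2.30 ± 0.66) and JMJD1C (-2.04 ± 0.53). Without P9, AEBP2 (-1.83, edgeR adjusted p = 0.065) and RNF2 (-1.71, adjusted p = 0.052) missed the threshold and the others passed it.

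In hypoblast against TE, JARID2 was the 1 gene of the 6 called, where 17.7% of all genes were, so the count itself is near the background. It ran from 21.0 to 74.3 CPM in hypoblast, median 33.8, against 36.4 to 465.4 CPM in TE, median 76.2. It was lower in hypoblast in 6 of 6 blocks, by -1.46 ± 0.26 (edgeR adjusted p = 0.00057), and by -1.25 (adjusted p = 0.00055) without P9. EZH2 (0.25 ± 0.23) and SUZ12 (-0.33 ± 0.23) were not called between these lineages. Of the related genes, PHC1 (1.45 ± 0.39) and CBX2 (2.07 ± 0.69) of PRC1 were higher in hypoblast and the methyltransferase KMT2C (-1.05 ± 0.26) was lower. Without P9, CBX2 missed the threshold (2.08, edgeR adjusted p = 0.055).

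**Figure D4:**
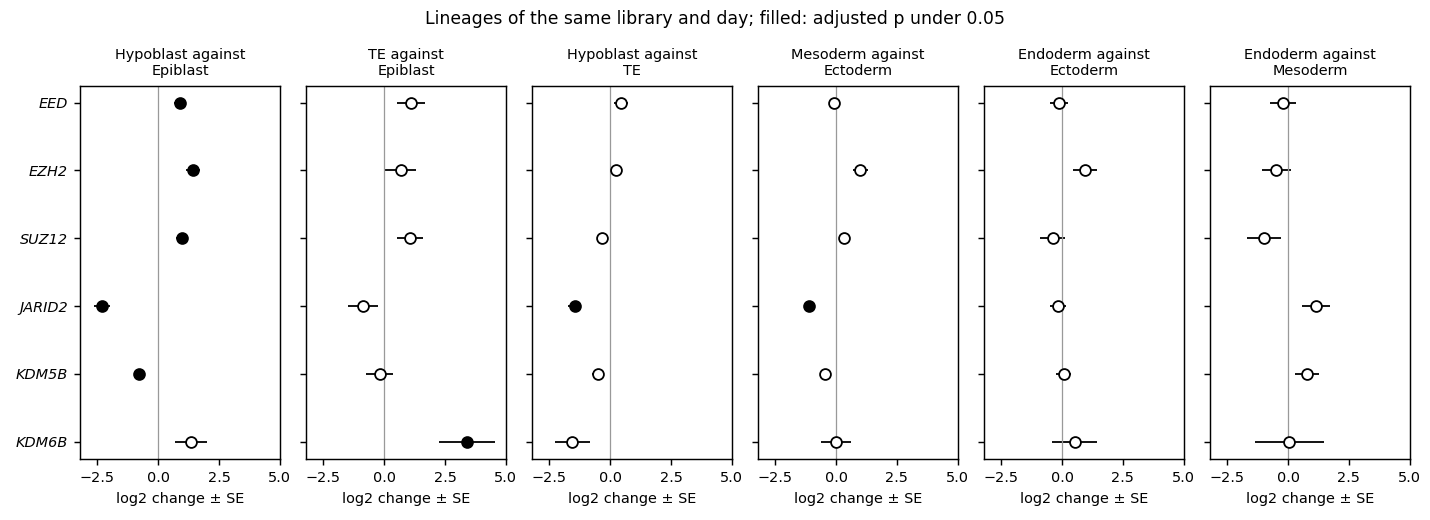
Log2 change ± SE of each gene between lineages of the same library and day, with filled points for an adjusted p under 0.05. JARID2 was lower in hypoblast against epiblast (-2.30) and against TE (-1.46), and in mesoderm against ectoderm (-1.10).

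During gastrulation, from E11, mesoderm and ectoderm could be compared in 6 blocks. JARID2 ran from 18.3 to 66.2 CPM in mesoderm, median 43.2, against 66.4 to 188.1 CPM in ectoderm, median 74.8. It was lower in mesoderm in 6 of 6 blocks, by -1.10 ± 0.22 (edgeR adjusted p = 0.018), as the 1 gene of the 6 called, where 3.10% of all genes were. The blocks ranged from P6, with 66.2 CPM in mesoderm and 70.3 CPM in ectoderm, to P19, with 18.3 and 66.4 CPM. The call was lost with at least 10 cells per sum and without P12, P18 or P19 (adjusted p = 0.064 to 0.078), and without the block (-1.05, adjusted p = 0.19). PHC1 of PRC1 was lower as well (-1.20 ± 0.27).

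EZH2 had in mesoderm 33.3 CPM in P6, 49.2 in P10, 125.7 in P18, 129.7 in P19, 156.8 in P13 and 90.4 in P12. In ectoderm of the same libraries it had 32.2, 14.7, 31.6, 38.9, 118.2 and 135.1 CPM, in that order. Mesoderm was higher in 5 of 6 blocks, most at E12 and E13, and the difference of 0.99 ± 0.31 was not called by edgeR (adjusted p = 0.12). DESeq2 called it (adjusted p = 0.023). In endoderm against ectoderm and in endoderm against mesoderm none of the 6 genes was called, where 1.44% of all tests were. These endoderm groups include Defi_Endoderm_E14, whose markers overlapped those of mesoderm.

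Over the days, EZH2 was higher at E14 than at E13 within ectoderm. It had 118.2, 96.4 and 135.1 CPM in the Ectoderm_E14 sums, against 38.9 and 31.6 CPM in the Ectoderm_E13 sums, with no overlap. The change of 1.66 ± 0.41 just missed the threshold (edgeR adjusted p = 0.058), and it passed with at least 10 cells per sum (1.602, adjusted p = 0.024) and with DESeq2 (1.76, adjusted p = 2.6e-07). Earlier sums of that branch were lower still or alike, with 32.2 and 31.2 CPM at E11 and 14.7 CPM at E12, after 16.2 and 17.9 CPM in Epiblast_E10. Per day, EZH2 changed by 0.59 ± 0.17 in ectoderm (adjusted p = 0.065) and by 0.67 ± 0.18 in mesoderm (adjusted p = 0.090), neither called by edgeR. DESeq2 called both (adjusted p = 0.011 and 0.0063), so this result depends on the test. In mesoderm the values were 33.3 CPM at E11, 49.2 CPM at E12, 129.7 and 125.7 CPM at E13 and 156.8 and 90.4 CPM at E14.

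EED was the 1 gene of the 6 with a called trend, in TE, where 16.5% of all genes were called, a count near the background. It fell by 0.23 ± 0.06 per day on the log2 scale (edgeR adjusted p = 0.011), with 94.1 and 115.4 CPM at E6, 92.2 and 60.7 CPM at E7, 79.3 and 79.5 CPM at E8, 24.5 and 35.2 CPM at E10, 57.2 CPM at E12, 14.5, 64.9, 13.2 and 35.8 CPM at E13 and 33.7 CPM at E14. With at least 10 cells per sum it was not called (-0.19 per day, adjusted p = 0.068). In TE the other listed genes called with day all rose: 5 of 14 measured PRC1 genes (RING1, RNF2, CBX2, PHC2 and PCGF2, at 0.20 to 0.46 per day), 3 of 10 demethylases of K9 and K36 (PHF2, JMJD1C and KDM7A, at 0.21 to 0.57) and KMT2A (0.51 ± 0.11). Without P9, PHC2 missed the threshold (0.33, edgeR adjusted p = 0.072) and the others passed it.

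In the other 5 lineages no trend of the 6 genes was called, where 4.93% of all tests were. In epiblast EED had 33.0 and 32.7 CPM at E7, 38.4 and 40.3 CPM at E8, 44.8 CPM at E9 and 94.3 and 75.8 CPM at E10 (0.31 ± 0.11 per day, adjusted p = 0.12). In hypoblast it had 111.5 and 125.1 CPM at E7, 51.1 to 68.5 CPM at E8, 61.2 CPM at E9 and 61.3 to 75.8 CPM at E10 (-0.29 ± 0.09 per day, adjusted p = 0.067). Few libraries held a lineage at 2 days. In hypoblast of P5, EED had 51.1 CPM at E8 and 75.8 CPM at E10, opposite to the slope over all hypoblast sums. In TE it had 60.7 CPM at E7 and 35.8 CPM at E13 in P9, and 57.2 CPM at E12 and 13.2 CPM at E13 in P10, both in the direction of the slope. In epiblast, ectoderm, mesoderm and endoderm each library held 1 day, so a day and a library cannot be told apart there.

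**Figure D5:**
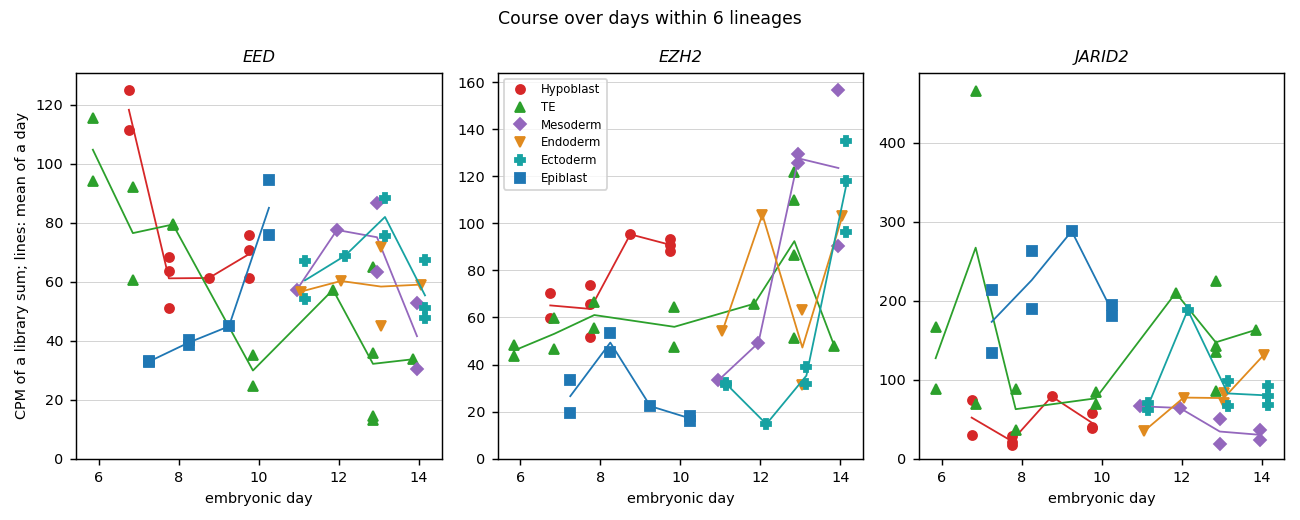
CPM of each library sum of EED, EZH2 and JARID2 by embryonic day in 6 lineages, with lines through the mean of each day. EZH2 was at 96.4 to 135.1 CPM in ectoderm at E14, above the 14.7 to 38.9 CPM of E11 to E13.

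The stem cell lines were set against Epiblast_E10, the day from which they were derived. The test took pgEpiSC_high and pgEpiSC_low as a single group, so any difference between them entered its spread. EZH2 had 28.5 CPM in pgEpiSC_high and 25.1 CPM in pgEpiSC_low, against 16.2 and 17.9 CPM in the Epiblast_E10 sums (0.89 ± 0.38, edgeR adjusted p = 0.22). SUZ12 had 40.3 and 57.8 CPM in the lines, against 38.3 and 29.2 CPM (0.80 ± 0.34, adjusted p = 0.22). EED had 52.9 and 42.8 CPM in the lines, against 94.3 and 75.8 CPM (-0.59 ± 0.27, adjusted p = 0.26). These 3 had an unadjusted p under 0.05 (edgeR), as did 19% of all genes. Their sums did not overlap between the groups, which says little with so few sums. How many of all genes show no overlap was not counted. None of the 6 genes was called, where 6.52% of all genes were.

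JARID2 had 149.3 CPM in pgEpiSC_high and 284.3 CPM in pgEpiSC_low, against 194.8 and 180.1 CPM in Epiblast_E10 (0.47 ± 0.32, edgeR adjusted p = 0.47). KDM5B had 144.3 and 188.7 CPM in the lines, against 145.9 and 133.3 CPM (0.51 ± 0.26, adjusted p = 0.32). KDM6B had 3.15 and 8.17 CPM in the lines, against 9.41 and 5.76 CPM (-0.15 ± 1.04, adjusted p = 0.97). The pgEpiSC cells are in libraries of their own, so a difference from epiblast and a difference between libraries cannot be told apart here. Of the related genes RBBP7 (0.96 ± 0.17) of the PRC2 core was higher in the lines, and BMI1 (-1.95 ± 0.40) of PRC1 and WDR5 (-1.52 ± 0.21) were lower. TOP2A, a gene of dividing cells, was higher (0.90 ± 0.16).

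Between pgEpiSC_high and pgEpiSC_low there is 1 library each and so no test. JARID2 differed by a log2 ratio of -0.93 (pgEpiSC_high over pgEpiSC_low, 1 CPM added), with intervals of 144.0 to 154.7 CPM in pgEpiSC_high and 275.4 to 293.5 CPM in pgEpiSC_low that cover counting error alone. SUZ12 (-0.51) and KDM5B (-0.39) were also lower in pgEpiSC_high beyond counting error, as was KDM6B (-1.14), with 2.42 to 4.03 CPM in pgEpiSC_high and 6.71 to 9.84 CPM in pgEpiSC_low. EED was higher in pgEpiSC_high (0.30, with 49.7 to 56.1 CPM there and 39.4 to 46.5 CPM in pgEpiSC_low). For EZH2 the counting intervals overlapped (0.18).

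Across the 39 groups, the means of JARID2 and KDM5B followed each other most closely among the 15 pairs of these genes (Pearson r = 0.65), followed by EED and KDM5B (0.55). EZH2 and EED, subunits of the same core, had an r of 0.09, EZH2 and SUZ12 0.27 and EED and SUZ12 0.38. EED and KDM6B had the lowest value, -0.40. These are descriptions over groups that share libraries and depth. Among 11188 genes compared, those whose means were most like a member's over the 39 groups were LTO1 (r = 0.85), MTFMT, GLIS2, RCL1 and CHTOP (0.74) for EED and HIPK1 (0.77), FNDC3B, RBMS1, COPA and HIPK3 (0.74) for EZH2. They were TMEM161B (0.75), NAA15, TMOD3, OSBPL8 and LRRC47 (0.71) for SUZ12, and UBR4 (0.81), BCAT1, KDM5C, CHD8 and DTNBP1 (0.69) for JARID2. For KDM5B they were PRPF8 (0.81), ADNP, NEK9, URI1 and ASXL1 (0.78), and for KDM6B CAMK2G (0.85), ARHGAP32, OXR1, MAP3K13 and FBXW11 (0.83).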

How the data were processed

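The deposited count table covers 1647 cells and 29306 features, of which 92 are spike-ins. Per the submitters' processing notes the tools were UMI-tools, featureCounts 1.6.4 and STAR 2.7.1a on Sscrofa11.1. Their roles are not stated there, so reads and molecules cannot be told apart in the counts. The authors' other deposited tables hold, for 25749 genes, means and SDs over cells of log2(CPM/10 + 1) in 39 groups, as recomputation from the counts showed. Cells were assigned to groups by least squares of these means on the cells' values over 23601 genes. Each cell then fell in 1 group, and recomputed values lay within 0.001 of the deposited ones for no less than 93.11% (means) and 99.82% (SDs) of genes in any group. Spike-ins (1.80% of counts) were left out.

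A sum entered with 5 or more cells, except that Oocyte needed 1 and Zygote, 2C and 4C needed 2. The 67 embryonic and stem cell sums were tested with edgeR 4.0.16 in R 4.3.3 (filterByExpr, TMM, common and trended dispersion, quasi-likelihood F-test, Benjamini-Hochberg threshold 0.05). The families were 15 steps between successive stages in a single fit, slopes per day in 6 lineages, 6 lineage pairs with library and day as a block (at least 3 blocks), and the lines against Epiblast_E10. The SE is the absolute log2 change divided by the square root of F. Poisson intervals (95%) cover counting error alone. The procedure was tested on simulated data. Python 3.11.15, numpy 2.4.6, pandas 2.3.3, scipy 1.17.1 and matplotlib 3.10.9 served the rest.

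The genes, related lists and tests were chosen with earlier results of these data known. The 6 genes are named in every comparison, list genes where they passed the threshold beside one of the 6, and the 5 genes most like each by Pearson correlation over groups. Alternatives were DESeq2 1.42.0, its size factors, no filter, at least 10 cells per sum, each library left out, the block added or removed, other epiblast days, other pseudocounts, and, added after seeing the data, cells with at least 6000 genes, a change per day, and related genes without P1 or P9. Sequences of the genes were not used here. Some related genes of the lists are not reported here by name.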

Additional observations from a re-analysis of the deposited data

Results flagged for a closer look

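KDM5B in TE_E13 had a sum that stood far from the others of its group: 94.1 CPM in library P18, against 38.99, 32.3 and 40.9 CPM in the other libraries of that group. Its gap to the nearest value, divided by the range of the 4 sums, exceeded Dixon's critical value. TE_E13 was the one group with at least 4 sums, so the 6 genes in that group were examined, and chance flags about 1 in 20 such sets.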

How the results depend on the processing

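Among the tests, the stage comparisons held 11 calls of these genes, 18 with DESeq2, and 8 to 12 without a library. The day trends held 1 call, 4 with DESeq2, 3 with no filter on low counts, 0 with at least 10 cells per sum, and 1 to 2 without a library. The lineage comparisons held 8 calls, 1 with at least 10 cells per sum and 5 with no replicate block. Against Epiblast_E10, 3 of the 6 genes had an unadjusted p under 0.05 in edgeR, where 19% of all genes did. The lines had 0 calls there with edgeR, and 0 with DESeq2. With Epiblast_E8 as reference there was 1, KDM5B at 0.91 (adjusted p = 0.043). EED then reversed to 0.34 and EZH2 to -0.82. With Epiblast_E9, EED reversed to 0.37, JARID2 to -0.11 and KDM6B to 1.21. Leaving out a library gave JARID2 between -0.14 (without pgEpiSC_low) and 0.86 (without pgEpiSC_high), and KDM6B between -1.07 (without pgEpiSC_low) and 0.37 (without pgEpiSC_high), with 0.21 without P15. The stage groups 4C and 2C alone share 2 libraries, P1 and P13. With these as a replicate block, EED was at 2.94 and KDM5B at 3.15, neither called. That pairing rests on the library alone, and the cause was not tested. KDM6B in TE against epiblast had an adjusted p of 0.050 with DESeq2 size factors, just above the threshold. Where leaving out a library left 1 sum in a group, that sum is assumed to vary like the other groups. KDM6B had 7008 counts in all and a count in 41.0% of cells, the fewest of the 6 genes.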
